A study of Homo sapiens with 18 samples.

Results

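LM2 is the lung-metastatic subline of MDA-MB-231, a cell line grown from a human triple-negative breast tumour, and the data described here are the 6 LM2 libraries of an RNA sequencing series that holds 18 libraries. The members were taken by sample title and count column: 3 libraries of LM2 cells that expressed the WDR5 hairpin shWDR5-1 were set against 3 libraries of LM2 cells that expressed the control hairpin shCtrl, over the 12157 of 58815 genes with enough counts. Both groups carried their hairpin in pINDUCER10, a lentiviral vector that makes the hairpin when doxycycline (DOX) is present, and both received DOX at 1 μg/mL for 3 days, so that DOX is shared and the hairpin differs. The replicates of a group are cultures of the same transduced line harvested at different passages. A p-value therefore measures the spread between passages, pooled over the sublines of the series. It does not cover other hairpins or independently transduced lines. The other 12 libraries come from the brain-metastatic BrM3 and bone-metastatic BoM sublines under the same hairpins and DOX, and enter here for the estimate of the spread and for 1 comparison.

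WDR5 is a WD40-repeat protein that other chromatin proteins dock on. It joins RBBP5, ASH2L and DPY30 in the core of the KMT2 complexes, which methylate lysine 4 of histone H3 at promoters and enhancers, it is a subunit of the NSL histone acetyltransferase complex, and it binds the transcription factor MYC. Ribosomal protein (RP) genes, which make up much of the mRNA of a dividing cell, are among the promoters where WDR5 and MYC are found together. The question asked of these libraries was which genes depend on WDR5 in a metastatic breast cancer line.

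Counts totalled 25.5M, 56.8M and 119.7M in the shCtrl libraries and 41.2M, 66.8M and 18.1M in the shWDR5 libraries, and all 18 libraries of the series correlated most closely with libraries of their own line. M stands for 1e6 counts. Levels are given as normalized CPM, the counts per 1e6 after edgeR's TMM scaling of the library size, and are relative to the other mRNAs of the library. The table held 0 spike-in rows, so a change in the total RNA per cell is not seen, and in bulk RNA fewer cells of a type and less RNA per cell cannot be told apart. Of the markers of the line, VIM, which encodes the mesenchymal filament protein vimentin, was between 1494 and 2040 CPM, while CDH1, the epithelial cadherin, stood between 0.0896 and 0.153 CPM and the oestrogen receptor gene ESR1 between 0.189 and 0.447. Of the 10 defining markers edgeR called 0, with 3 at an unadjusted p under 0.05, 1 called by DESeq2 and a median log2 fold change of 0.218. Over all 12157 tested genes edgeR had 2448 at an unadjusted p under 0.05, and DESeq2 called 1146. Of 14 leukocyte and endothelial markers, 3 had enough counts to be tested and 4 had under 10 counts over the 6 libraries, among them CD3D and CD3E. Their summed level ran from 10.5 to 13.5 CPM with shCtrl and from 12.8 to 16.3 with shWDR5, and PECAM1, an endothelial adhesion gene, rose (log2 fold change 0.70, adjusted p = 0.0328). PECAM1 lost its call without shCtrl library 1, 2 or 3 or shWDR5 library 2 or 3 (largest adjusted p = 0.114). The libraries come from a cell line in culture. The source of these marker reads, and its part in the other results, was not tested.

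WDR5 mRNA was lower in every shWDR5 library. It stood at 112, 128 and 134 CPM with shCtrl and 24.3, 24.4 and 20.5 with shWDR5, which left 18.5% of the shCtrl mean (log2 fold change -2.43, SE 0.14, adjusted p = 1.76e-08, edgeR quasi-likelihood test). The groups were far apart, with the lowest shCtrl library at more than 4 times the highest shWDR5 library. The study lists 2 hairpin sequences against WDR5, and the sources used here do not say which of them is shWDR5-1. They are shown because they define the perturbation, each 5′ to 3′ in the sense of the mRNA with coordinates on hg38, and the second is the one marked as used in the study's screen.
V3LHS_330806, chr9:134156564-134156582, plus strand: agattgtacagaaactaca
V2LHS_140181, chr9:134157903-134157921, plus strand: ctcaacagcttgtcaccca
Both lie in the coding sequence of WDR5 on chromosome 9, the first in exon 13 and the second in exon 14 of the 14 exons of the canonical transcript in GENCODE release 44. The second was also found, letter for letter, in ENSG00000224097, a WDR5-derived processed pseudogene that had between 0 and 9 counts in the LM2 libraries, and no other annotated transcript held either sequence.

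Knockdown of WDR5 in LM2 was followed by more falls than rises. At an adjusted p-value under 0.05, 584 genes fell, which is 4.8% of those tested, and 181 rose, which is 1.49%, so that 6.29% changed in either direction. The median log2 fold change of the called genes was -0.64 for those that fell and 0.46 for those that rose, and 82 fell and 16 rose by at least 1 on the log2 scale. The 3 shCtrl and 3 shWDR5 libraries did not overlap for 572 of the fallen and 177 of the risen genes, against 25.3% of all tested genes. Falls made up 76.3% of the calls, and the share moved to 64.1% with DESeq2 and to 65.2% when the dependence of each library on GC content was removed. It was 56.2% when that correction was joined with the replicate number as a block, and 84.9% without shCtrl library 2. The count of calls rested on single libraries: without shCtrl library 2, 353 fell and 63 rose, without shCtrl library 3 it was 347 and 65, without shWDR5 library 1 it was 322 and 63, without shWDR5 library 2 it was 314 and 78, and without shWDR5 library 3 it was 476 and 119. In every one of the 6 fits that left out 1 library, 241 of the fallen and 48 of the risen genes were called.

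**Figure D1:**
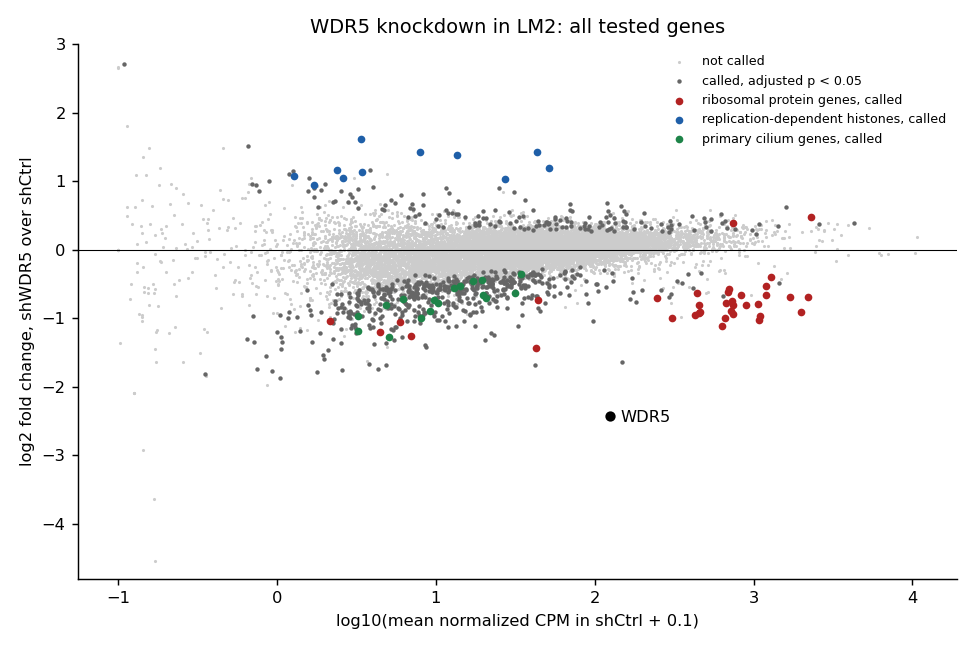
Log2 fold change of shWDR5 over shCtrl in LM2 (vertical axis) against log10 of the mean normalized CPM in shCtrl plus 0.1 (horizontal axis), with 1 point per tested gene. Called RP genes lie mostly below 0 among the most abundant mRNAs, the called histone genes all lie above 0, and WDR5 stands at -2.43.

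Falls were concentrated among mRNAs of low level, apart from the RP genes. Of the 3040 genes with the lowest shCtrl level, up to 10.4 CPM, 8.91% fell, whereas of the 3039 with the highest, from 75.5 CPM, 1.94% fell. Of the 59 fallen genes at these highest levels, 27 encode RPs. Long noncoding RNAs fell in 45 of 525 cases (8.57%) and rose in 15 (2.86%), against 4.59% and 1.44% of protein-coding genes. By position, chromosome 20 held 32 fallen among 330 tested genes (9.7%) and chromosome X 33 among 434 (7.6%), and these shares are descriptions without a test. The libraries also differed in GC content within both groups. Over 10519 genes, the deviation of a library from the LM2 mean changed with every 10 points of transcript GC by -0.229, 0.091 and 0.145 on the log2 scale in the shCtrl libraries and by -0.07, -0.084 and 0.147 in the shWDR5 libraries, and its part in the calls is given through the GC-corrected fit where a count moved.

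Beside WDR5, the 12 largest falls among genes whose groups did not overlap were FNDC4, SALL2, GYG2, DDO, BRSK1, PHETA2, MPP2, NME4, APLP1, MAGEE1, PYGL and MAGI2-AS3, with log2 fold changes from -1.87 to -1.60. PYGL, the liver form of glycogen phosphorylase, which releases glucose from glycogen, was the most abundant of them and stood at 144, 146 and 152 CPM with shCtrl and 43.4, 45.8 and 53.6 with shWDR5 (log2 fold change -1.63, SE 0.09, adjusted p = 1.76e-08). GYG2, a glycogenin that primes glycogen synthesis, was at 1.7, 1.98 and 1.35 CPM with shCtrl and 0.372, 0.409 and 0.844 with shWDR5 (log2 fold change -1.78, SE 0.26, adjusted p = 0.000466). The lowest shCtrl library of PYGL was far above its highest shWDR5 library, and in GYG2 shWDR5 library 3 was the highest of its group. NME4, a mitochondrial nucleoside diphosphate kinase, was at 31.1, 41.9 and 53.2 CPM with shCtrl and 12.1, 12.4 and 15.2 with shWDR5 (log2 fold change -1.68, SE 0.23, adjusted p = 0.000318). Its shCtrl libraries spread widely but stayed above all of the shWDR5 libraries. MPP2, a membrane scaffold of the MAGUK family, was at 3.78, 4.66 and 4.14 CPM with shCtrl and 1.39, 1.03 and 1.46 with shWDR5 (log2 fold change -1.74, adjusted p = 0.00016), and APLP1, a relative of the amyloid precursor protein, was at 3.78, 4.78 and 5.76 CPM with shCtrl and 1.34, 1.38 and 1.97 with shWDR5 (log2 fold change -1.68, adjusted p = 9.82e-05). BRSK1, a kinase of neuronal polarity, had a log2 fold change of -1.75, adjusted p = 0.00014. MAGI2-AS3, a long noncoding RNA, was at 2.27, 1.78 and 1.56 CPM with shCtrl and 0.72, 0.576 and 0.45 with shWDR5 (log2 fold change -1.60, adjusted p = 0.000295). SALL2, a zinc finger transcription factor, was near the floor of detection at 0.189, 0.305 and 0.261 CPM with shCtrl and 0.0993, 0.0606 and 0.0563 with shWDR5 (log2 fold change -1.81, adjusted p = 0.0144). SALL2 lost its call without shCtrl library 2 or 3 or shWDR5 library 2 (largest adjusted p = 0.128).

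Of the 12 largest rises, 9 were replication-dependent histone genes, and the others were OR2B6, RELN and LINC01204. RELN, which encodes the secreted glycoprotein reelin, was at 1.32, 1.05 and 1.11 CPM with shCtrl and 2.58, 2.48 and 2.48 with shWDR5 (log2 fold change 1.14, SE 0.23, adjusted p = 0.00638). LINC01204, a long noncoding RNA of chromosome X, was at 1.25, 0.933 and 1.07 CPM with shCtrl and 2.14, 2 and 2.93 with shWDR5 (log2 fold change 1.10, SE 0.17, adjusted p = 0.000819). OR2B6, an olfactory receptor gene, was at 0.491, 0.559 and 0.611 CPM with shCtrl and 1.91, 1.45 and 1.52 with shWDR5 (log2 fold change 1.52, SE 0.23, adjusted p = 0.000839). It lies on chromosome 6 from 27957241 to 27958182 on GRCh38, 63350 bases from HIST1H2BO, the nearest replication-dependent histone gene. Genes were named here only where the groups did not overlap.

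**Figure D2:**
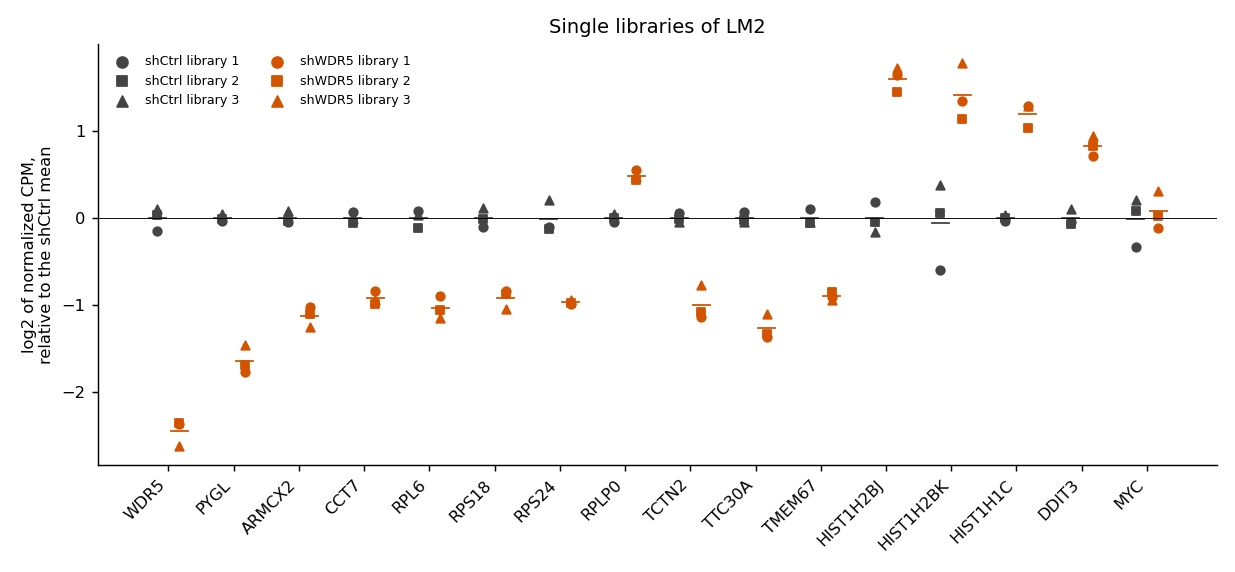
Single LM2 libraries for 16 genes, as log2 of normalized CPM relative to the shCtrl mean (vertical axis); symbols mark the library number and short lines the group means. The shWDR5 libraries lie apart from the shCtrl libraries for the genes shown, except for MYC, where they overlap.

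Replication-dependent histone genes are clustered on chromosomes 6 and 1 and encode the core and linker histones that package newly made DNA. Their mRNAs normally end in a stem-loop and have no poly(A) tail, so that mRNA libraries made from poly(A) RNA hold few of them. Of 64 genes on the list, 62 were in the table and 12 had enough counts, and among these 11 rose and 0 fell, where 1.49% of all tested genes rose. The 12 are not the whole family: a gene with a high level in 1 group passes the filter more readily. Among the 50 genes below the filter, 13 had no count in LM2, 17 had a higher and 20 a lower mean with shWDR5, and the fit without a filter called 2 of them up and 0 down. Summed over the 12 tested genes, the level was 146, 158 and 173 CPM with shCtrl and 376, 326 and 445 with shWDR5, and summed over the 50 others it was 6.77, 7.02 and 7.65 against 8.27, 7.66 and 10.5.

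HIST1H1C, a linker histone gene and the most abundant tested member in the shCtrl libraries, was at 50.3, 51.4 and 52.5 CPM with shCtrl and 125, 105 and 125 with shWDR5 (log2 fold change 1.20, SE 0.17, adjusted p = 0.000466). HIST1H2BK, an H2B gene, was at 28.7, 45.1 and 56.4 CPM with shCtrl and 109.6, 94.9 and 148 with shWDR5 (log2 fold change 1.43, SE 0.25, adjusted p = 0.00208). Its lowest shWDR5 library was well above its highest shCtrl library. HIST1H2BJ, another H2B gene, was at 3.7, 3.15 and 2.91 CPM with shCtrl and 10.1, 8.83 and 10.7 with shWDR5 (log2 fold change 1.61, SE 0.13, adjusted p = 1.69e-06). HIST1H4I, an H4 gene, was at 14.6, 13.0 and 12.9 CPM with shCtrl and 31.7, 30.9 and 43.1 with shWDR5 (log2 fold change 1.38, SE 0.16, adjusted p = 0.000123), and HIST1H2AC, an H2A gene, at 29.6, 24.9 and 26.3 CPM with shCtrl and 53.8, 47.5 and 64.3 with shWDR5 (log2 fold change 1.03, SE 0.12, adjusted p = 9.82e-05). HIST1H1C was the only linker gene with enough counts, and among those below the filter HIST1H1E, named after its values were seen, was at 1.51, 1.07 and 1.64 CPM with shCtrl and 0.77, 0.818 and 1.69 with shWDR5. HIST1H2BD, HIST1H2BC, HIST1H4H, HIST2H2BE and, named after its values were seen, HIST1H2BN, with log2 fold changes of 1.43, 1.16, 1.13, 1.05 and 0.94, were called in every fit that left out 1 library, as were the 5 named before. HIST1H2BO was at 1.1, 0.983 and 1.46 CPM with shCtrl and 2.46, 1.76 and 3.77 with shWDR5 (log2 fold change 1.08, adjusted p = 0.0421). HIST1H2BO lost its call without shCtrl library 1, 2 or 3 or shWDR5 library 1 or 3 (largest adjusted p = 0.165). The exception among the tested genes was HIST1H3H, an H3 gene named after its values were seen, at 1.36, 1.25 and 1.8 CPM with shCtrl and 1.49, 1.36 and 1.75 with shWDR5 (log2 fold change 0.0035, adjusted p = 0.996). H3F3B, which encodes the replication-independent variant H3.3 and has a poly(A) mRNA, was at 607, 579 and 674 CPM with shCtrl and 865, 846 and 957 with shWDR5 (log2 fold change 0.52, SE 0.11, adjusted p = 0.00721). The other 9 tested genes for variant histones were not called.

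The octamer ATTTGCAT, a known element of H2B promoters, was found on either strand in the promoter window, from 250 bases before to 50 after the RefSeq start, of 6 of the 11 histone genes that rose, against 1.22% of the windows of tested genes and 1.8% of 27305 RefSeq windows. All 6 encode H2A or H2B, and their sites are printed to show the element and its surroundings, as 30 bases of GRCh38.p14 from RefSeq, 5′ to 3′ on the gene's strand, with the octamer or its complement in capitals.
HIST1H2BJ, chr6:27132824-27132853, minus strand: ctcttcaccttATTTGCATaagcgattcta
HIST1H2BK, chr6:27146886-27146915, minus strand: ctcttcaccttATTTGCATgagaggtccta
HIST2H2BE, chr1:149886710-149886739, minus strand: tcggagccctaATTTGCATaaggtggttat
HIST1H2BC, chr6:26124031-26124060, minus strand: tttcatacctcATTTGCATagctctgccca
HIST1H2AC, chr6:26124031-26124060, plus strand: tgggcagagctATGCAAATgaggtatgaaa
HIST1H2BO, chr6:27893265-27893294, plus strand: gcttcctcttaATGCAAATgagctttctga
HIST1H2BC and HIST1H2AC are transcribed away from each other and share the same 30 bases, read on opposite strands. The share among histone genes that did not rise was not counted, so gene class and rise cannot be told apart here. A match is a description of the letters, and no test of the shares was made.

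RP genes, which encode the protein part of the ribosome, split into a group that fell and a group that did not. All 79 RP genes had enough counts, and 33 fell (41.8%, against 4.8% of all tested genes) while 2 rose. The median log2 fold change over the 79 was -0.435, against -0.001 over all tested genes. The enrichment of RP genes among falls was found by the study in these same samples, so the list is not independent evidence of its direction. By limits set after the values were seen, 42 genes had a log2 fold change under -0.3 with a median of -0.79, 32 genes had a value above 0.1 with a median of 0.4, and 5 lay between. Of the 33 that fell, 32 had groups that did not overlap, as did 572 of all 584 fallen genes, so this is not particular to RP genes. In every fit that left out 1 library 25 of the 33 were called, against 241 of the 584. Summed over all 79, the level was 51000, 51300 and 55800 CPM with shCtrl and 46800, 44700 and 50900 with shWDR5, and the groups nearly met. Summed over the 33, which were chosen for their fall, the level was 23700, 22700 and 24700 CPM with shCtrl and 14200, 13500 and 14100 with shWDR5, while the other 46 summed to 27300, 28600 and 31100 against 32600, 31100 and 36800.

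**Figure D3:**
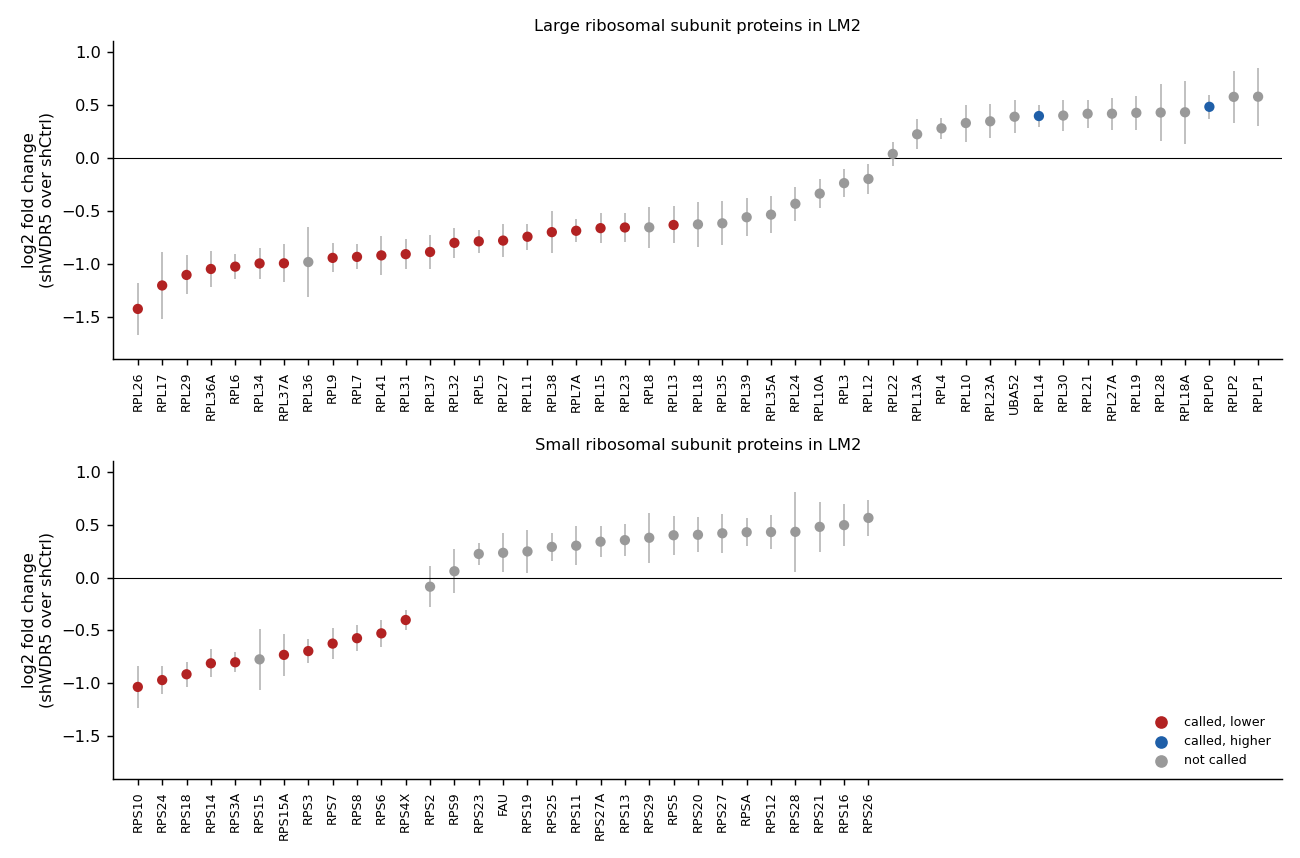
Log2 fold change of shWDR5 over shCtrl (vertical axis) for the 47 genes of the large and 31 of the 32 genes of the small ribosomal subunit, sorted within each panel; bars are standard errors and colours mark the call. Most genes lie either under -0.3 or above 0.1, in both subunits.

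In the large subunit 21 of 47 genes fell and 2 rose. RPL6 was at 1149, 1005 and 1109 CPM with shCtrl and 585, 523 and 490.2 with shWDR5 (log2 fold change -1.03, SE 0.12, adjusted p = 9.82e-05). RPL7 was at 799, 669 and 771 CPM with shCtrl and 392, 380.3 and 398 with shWDR5 (log2 fold change -0.94, SE 0.12, adjusted p = 0.00014), and RPL5, which carries 5S ribosomal RNA and also binds MDM2, was at 1148, 1004 and 1053 CPM with shCtrl and 602, 596 and 656 with shWDR5 (log2 fold change -0.79, SE 0.11, adjusted p = 0.000295). Each of these stood well under its control level, with no overlap between the groups. RPL34 (-1.0), RPL9 (-0.95) and RPL31 (-0.91) fell by similar amounts. RPL7L1, a paralog of RPL7 on the list of RP paralogs, was at 744, 627 and 567 CPM with shCtrl and 456, 411 and 344 with shWDR5 (log2 fold change -0.68, SE 0.11, adjusted p = 0.00146). The 2 genes that rose were RPLP0, which encodes the scaffold of the stalk, at 2234, 2292 and 2384 CPM with shCtrl and 3355, 3102 and 3192 with shWDR5 (log2 fold change 0.48, adjusted p = 0.0173), and RPL14 at 799.8, 709.8 and 703 CPM with shCtrl and 970.3, 955 and 983 with shWDR5 (log2 fold change 0.39, adjusted p = 0.0327). Both are named after their values were seen, and the fits without shCtrl library 2 or without shWDR5 library 1 called no RP gene as risen. Leaving out each of the 6 libraries in turn, RPLP0 kept its call 4 times and RPL14 1 time. The partners of RPLP0 in the stalk, RPLP1 and RPLP2, had log2 fold changes of 0.58 (adjusted p = 0.251) and 0.58 (adjusted p = 0.189).

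In the small subunit 12 of 32 genes fell and 0 rose, with a median of 0.228. RPS18 was at 1851, 1982 and 2153 CPM with shCtrl and 1114, 1093 and 969 with shWDR5 (log2 fold change -0.91, SE 0.12, adjusted p = 0.000165). RPS24, a gene mutated in Diamond-Blackfan anaemia, was at 1024, 1010 and 1268 CPM with shCtrl and 556, 558 and 572 with shWDR5 (log2 fold change -0.97, SE 0.13, adjusted p = 0.000266). RPS3A was at 497, 434 and 424 CPM with shCtrl and 238, 253 and 287 with shWDR5 (log2 fold change -0.80, SE 0.10, adjusted p = 0.000123). In these genes the highest shWDR5 library stayed well under the lowest shCtrl library. RPS3 and RPS14 fell by 0.70 and 0.81 on the log2 scale. RPS19 and RPSA, chosen after their values were seen as examples of the other group, were at 695, 787 and 733 CPM with shCtrl and 916, 816 and 897 with shWDR5 (log2 fold change 0.25, adjusted p = 0.574) and 1514, 1257 and 1169 CPM with shCtrl and 1849, 1622 and 1831 with shWDR5 (log2 fold change 0.43, adjusted p = 0.0683). RP genes called as risen numbered 21 of 79 without a filter, 6 with DESeq2 and 5 with the GC correction, against 2. The count that fell was 41, 38 and 39 in the same fits. Without a filter 704 of 41236 genes fell and 259 rose. Of all tested genes 6.05% fell and 3.38% rose with DESeq2, and 10% and 5.36% with the GC correction.

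RP genes have many processed pseudogenes, and reads of near-identical copies may be split between them. Of 59 tested pseudogenes named after an RP gene, 56 had a log2 fold change of the same sign as the parent gene, and all 24 whose parent fell were negative, 8 of them called, where 4.8% of all tested genes fell. RPL6P10, chosen after its values were seen, was at 5.78, 5.02 and 4.97 CPM with shCtrl and 2.38, 2.04 and 2.65 with shWDR5 (log2 fold change -1.17, adjusted p = 0.00247). These values may share reads with the parents and are no separate measurement.

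The starts of RP genes usually lie in a run of C and T, the element through which mTOR controls their translation. The 4 fallen genes with the smallest p and a window in the RefSeq table, and the 2 risen genes, are printed to set the starts of the groups side by side, as 15 bases before and 15 from the RefSeq start in GRCh38.p14, 5′ to 3′, with the transcribed bases in capitals.
RPL6, chr12:112411428-112411457, minus strand: tatttgtatcctcagTGAATCAGAACCAGA
RPS3A, chr4:151099613-151099642, plus strand: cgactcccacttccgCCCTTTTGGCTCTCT
RPS18, chr6:33272060-33272089, plus strand: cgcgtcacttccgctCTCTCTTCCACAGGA
RPS24, chr10:78033848-78033877, plus strand: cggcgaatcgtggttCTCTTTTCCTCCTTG
RPLP0, chr12:120201097-120201126, minus strand: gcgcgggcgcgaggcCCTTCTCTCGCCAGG
RPL14, chr3:40457324-40457353, plus strand: gggcgggtcttcttcCTTCTCGCCTAACGC
At least 5 C or T in a row, within 4 bases before and 6 from the start, were found for 17 of 26 fallen RP genes with a window and for 21 of 27 RP genes with a positive log2 fold change, against 15.8% of the windows of tested genes. RPL6 has no such run at its RefSeq start, and the other 5 genes printed do. The RefSeq start used for RPL6 lies well inside its GENCODE span, 112405189 to 112418838. Other starts of RPL6 were not examined. The E-box CACGTG, to which MYC and its partner MAX bind, was in the windows of 0 of 26 fallen and 3 of 27 others, against 10.1% of tested genes and 7.43% of 27305 RefSeq windows. CGGAAGT, the letters of an ETS-type site, was on either strand in 12 of 26 and 7 of 27, against 14.3% of tested genes and 7.23% of RefSeq windows. None of these differences was tested, and the letters of a window say nothing of binding.

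Other genes of protein synthesis were counted in the same way, against 4.8% of all tested genes that fell and 1.49% that rose. An unadjusted p under 0.05 was found for 2448 of all 12157 tested genes. Of 74 tested genes for mitochondrial ribosomal proteins edgeR called 0, with 5 at an unadjusted p under 0.05 and 1 called by DESeq2, and their median log2 fold change was 0.028, and of 68 genes for ribosome biogenesis edgeR called 1, POLR1E, a subunit of RNA polymerase I, which rose (log2 fold change 0.32, adjusted p = 0.0185). Of these 68 genes 60 had a log2 fold change above 0, with a median of 0.165, and 8 rose with DESeq2, 8 with the replicate number as a block, 14 with the GC correction and 26 with both of the last. Of all tested genes 3.38%, 3.85%, 5.36% and 11.4% rose in the same fits. Of 22 aminoacyl-tRNA synthetase genes edgeR and DESeq2 called 0, with 3 at an unadjusted p under 0.05. Among 49 translation factor genes 4 rose (8.16%) and 3 fell (6.12%), and 40 had a log2 fold change above 0. With DESeq2 8 rose and 4 fell, where 3.38% of all tested genes rose and 6.05% fell. EIF4G3, a scaffold of the cap-binding complex, was at 170.1, 164 and 164 CPM with shCtrl and 102, 102 and 96.7 with shWDR5 (log2 fold change -0.72, SE 0.09, adjusted p = 0.000125), and RACK1, a receptor on the small subunit, was at 1337, 1458 and 1546 CPM with shCtrl and 1034, 986 and 1077 with shWDR5 (log2 fold change -0.49, SE 0.13, adjusted p = 0.0327). PABPC1 and PABPC4, which bind poly(A) tails, had log2 fold changes of 0.37 (adjusted p = 0.0167) and 0.32 (adjusted p = 0.0176). EIF4G3 kept its call in every fit that left out 1 library, whereas the others named here did not. RACK1 lost its call without shCtrl library 2 or 3 or shWDR5 library 1, 2 or 3 (largest adjusted p = 0.125), and PABPC1 lost its call without shCtrl library 2 or 3 or shWDR5 library 1, 2 or 3 (largest adjusted p = 0.0708). PABPC4 lost its call without shCtrl library 2 or 3 or shWDR5 library 1 or 2 (largest adjusted p = 0.0928), and POLR1E lost its call without shCtrl library 2 or 3 or shWDR5 library 1 or 2 (largest adjusted p = 0.103). Of 21 host genes of small nucleolar RNAs 3 fell, led by SNHG15 at 33.6, 35.3 and 34.7 CPM with shCtrl and 18.7, 18.1 and 16.7 with shWDR5 (log2 fold change -0.95, SE 0.16, adjusted p = 0.00138).

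The primary cilium is a sensory organelle built on the centriole by intraflagellar transport. Of 58 tested genes of the cilium 17 fell (29.3%, against 4.8% of all tested genes) and 0 rose, 54 had a log2 fold change below 0, and the median was -0.324. Cilium terms also came up in the study's own analysis of these samples, so the list is not independent evidence. TTC30A, a subunit of the anterograde transport complex, was at 5.18, 4.87 and 4.76 CPM with shCtrl and 1.91, 1.97 and 2.31 with shWDR5 (log2 fold change -1.27, SE 0.20, adjusted p = 0.00095). TCTN2, a transition zone protein, was at 8.28, 7.92 and 7.75 CPM with shCtrl and 3.63, 3.79 and 4.67 with shWDR5 (log2 fold change -1.0, SE 0.12, adjusted p = 0.00014), and TMEM67, its membrane partner there, was at 9.75, 8.7 and 8.83 CPM with shCtrl and 4.84, 5.06 and 4.73 with shWDR5 (log2 fold change -0.89, SE 0.14, adjusted p = 0.00117). No shWDR5 library of these genes reached the lowest shCtrl library. CLUAP1 and TCTN1 had log2 fold changes of -0.73 (adjusted p = 0.00158) and -0.72 (adjusted p = 0.0029). With the GC correction 33 of the 58 fell, and with the LM2 libraries fitted alone 11, with 0 rises in either fit. Of all tested genes 10% and 1.85% fell in these fits. Hedgehog pathway genes, whose signal passes through the cilium, gave 0 calls among 5 tested with edgeR, with DESeq2 or at an unadjusted p under 0.05. That unadjusted level was reached by 2448 of all 12157 tested genes.

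Calls among the partners of WDR5 in chromatin were counted against the 6.29% of all tested genes that were called. Of 21 tested subunits of the WRAD core and the KMT2 complexes, WDR5 and MEN1 fell (9.52%) and the others were not called. MEN1, which encodes menin and tethers KMT2A to chromatin, was at 45.2, 63.9 and 71.1 CPM with shCtrl and 36.3, 36.9 and 43.2 with shWDR5 (log2 fold change -0.64, SE 0.14, adjusted p = 0.0119). MEN1 lost its call without shCtrl library 2 or 3 or shWDR5 library 1 or 2 (largest adjusted p = 0.0755), and KANSL2 lost its call without shCtrl library 2 or 3 or shWDR5 library 1 or 2 (largest adjusted p = 0.157). RBBP5, ASH2L and DPY30, the other core subunits, had log2 fold changes of 0.02 (SE 0.16), 0.16 (SE 0.09) and -0.06 (SE 0.15). KMT2A was at 212, 225 and 172 CPM with shCtrl and 229, 246 and 177 with shWDR5 and its groups overlapped. WDR5B, the close paralog of WDR5, was at 8.65, 9.14 and 7.79 CPM with shCtrl and 5.84, 7.39 and 5.8 with shWDR5 (log2 fold change -0.41, SE 0.14, adjusted p = 0.0837), lower in each shWDR5 library but short of the threshold. In the NSL complex 1 of 8 genes was called (12.5%), KANSL2, which rose (log2 fold change 0.35, adjusted p = 0.0297).

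MYC was at 67.0, 88.6 and 96.7 CPM with shCtrl and 77.8, 85.5 and 104 with shWDR5 (log2 fold change 0.08, SE 0.13, adjusted p = 0.808), and the groups overlapped. Its partner MAX had a log2 fold change of 0.04 (SE 0.09). Of 10 tested genes of the MYC network 1 was called, MLX, a partner of the MAX-like factors, which rose (log2 fold change 0.28, adjusted p = 0.0264). Calls among cell cycle genes were counted against the same 6.29%, and unadjusted p-values under 0.05 against 2448 of all 12157 tested genes. Among 50 genes of DNA replication MCM4, a helicase subunit, rose (log2 fold change 0.30, adjusted p = 0.0328) and E2F2, a factor that drives S phase, fell (log2 fold change -0.64, adjusted p = 0.0388), and among 42 genes of mitosis edgeR and DESeq2 called 0, with 1 at an unadjusted p under 0.05 and a median of 0.074. RBL2, the pocket protein p130, fell (log2 fold change -0.54, adjusted p = 0.0212) among 16 genes of G1. MLX lost its call without shCtrl library 1, 2 or 3 or shWDR5 library 1 or 2 (largest adjusted p = 0.144), and MCM4 lost its call without shCtrl library 2 or 3 or shWDR5 library 1, 2 or 3 (largest adjusted p = 0.144). E2F2 lost its call without shCtrl library 1, 2 or 3 or shWDR5 library 1, 2 or 3 (largest adjusted p = 0.155), and RBL2 lost its call without shCtrl library 1 or 2 or shWDR5 library 1, 2 or 3 (largest adjusted p = 0.0807).

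Of 24 tested chaperone genes 2 fell and 2 rose, 8.33% each, against 4.8% and 1.49% of all tested genes. A log2 fold change above 0 was found in 18 of the 24, with a median of 0.157. With DESeq2 2 fell and 5 rose, where 6.05% of all tested genes fell and 3.38% rose. Both that edgeR called as fallen encode subunits of the cytosolic chaperonin that folds actin and tubulin. CCT7, one of its subunits, was at 477, 436 and 451 CPM with shCtrl and 254, 229.7 and 237 with shWDR5 (log2 fold change -0.92, SE 0.10, adjusted p = 7.62e-05), and CCT4 was at 324, 276 and 310.2 CPM with shCtrl and 201, 184 and 198 with shWDR5 (log2 fold change -0.64, SE 0.09, adjusted p = 0.000314). In both genes the groups were far apart. The other 5 tested chaperonin subunits, CCT2, CCT3, CCT5, CCT6A and CCT8, were not called, with log2 fold changes from 0.12 to 0.24, and are given after the values were seen. HSP90AB1 and HSPA9, a cytosolic and a mitochondrial chaperone, rose by less (log2 fold changes 0.37, adjusted p = 0.0271, and 0.34, adjusted p = 0.0173). HSP90AB1 lost its call without shCtrl library 2 or 3 or shWDR5 library 1 or 2 (largest adjusted p = 0.132), and HSPA9 lost its call without shCtrl library 2 or 3 or shWDR5 library 1 or 2 (largest adjusted p = 0.0852). Of 34 genes of the ATF4 and unfolded protein response 2 rose (5.88%, against 1.49% of all tested genes), and 4 rose with DESeq2, 6 with the block and 8 with the GC correction. In those alternatives 3.38%, 3.85% and 5.36% of all tested genes rose. DDIT3, which encodes the stress factor CHOP, was at 11.7, 11.5 and 12.9 CPM with shCtrl and 19.6, 21.3 and 23.1 with shWDR5 (log2 fold change 0.82, SE 0.16, adjusted p = 0.00396). PPP1R15A, the phosphatase subunit GADD34 that reverses eIF2α phosphorylation, was at 130.5, 142 and 166 CPM with shCtrl and 235, 211 and 235 with shWDR5 (log2 fold change 0.63, SE 0.12, adjusted p = 0.00367). These 2 were above all shCtrl libraries in each shWDR5 library and were called in every fit that left out 1 library, and the other 32 genes were not called by edgeR without the block or the correction.

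**Figure D4:**
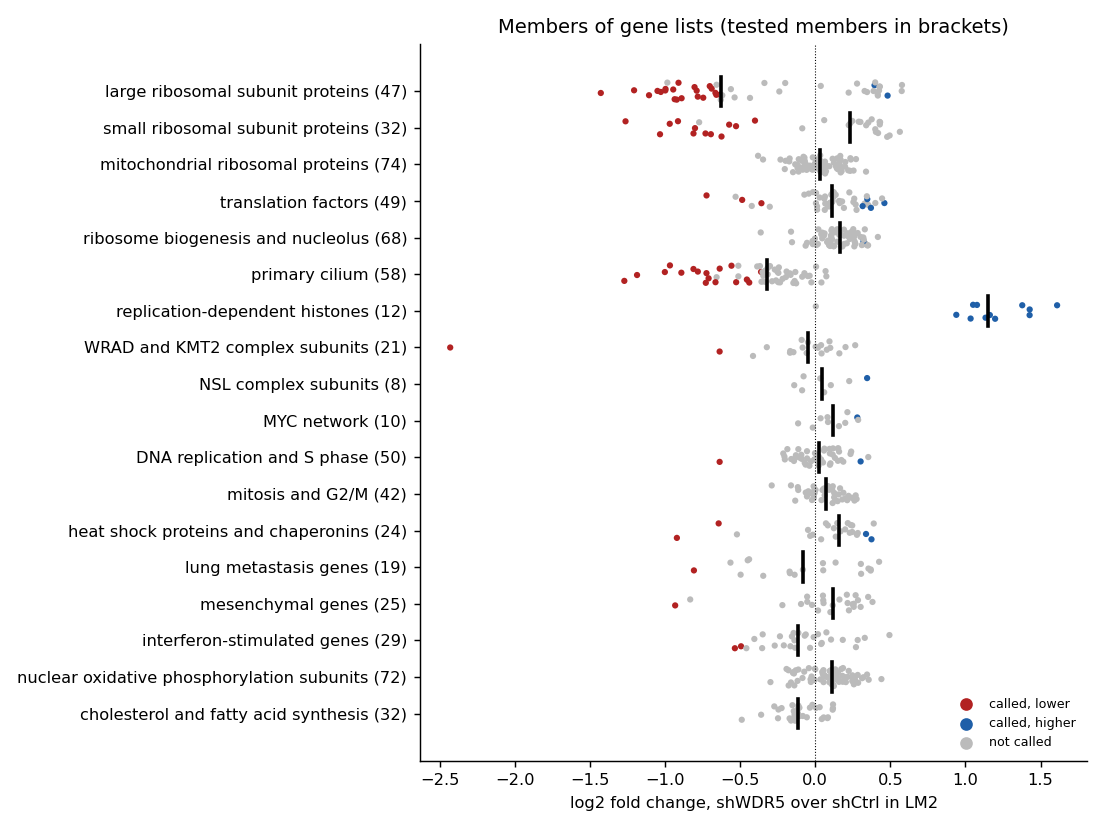
Log2 fold change of shWDR5 over shCtrl in LM2 (horizontal axis) for the tested members of 18 gene lists, 1 point per gene; black bars are the list medians and the dotted line is the median of all tested genes. Red and blue points are called genes, most of them in the RP, cilium and histone lists.

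Lists linked to metastasis and cell state held 1 or 2 calls each, where 6.29% of all tested genes were called. Of 19 tested genes of a lung metastasis list, VCAM1, an adhesion molecule that binds integrins of leukocytes, was at 14.5, 10.6 and 13.2 CPM with shCtrl and 7.97, 6.84 and 6.98 with shWDR5 (log2 fold change -0.81, SE 0.20, adjusted p = 0.0237) and was the only call. MMP1, TNC and ID1, other genes of that list, had log2 fold changes of -0.17 (SE 0.18), 0.05 (SE 0.17) and 0.30 (SE 0.31). FSCN1, the actin bundler fascin, was at 33.4, 57.2 and 68.7 CPM with shCtrl and 60.2, 55.9 and 99.6 with shWDR5 (log2 fold change 0.42, adjusted p = 0.356), and the GC correction gave it an adjusted p of 0.000105. PLAU, the urokinase protease, fell (405, 409.8 and 436 CPM with shCtrl and 287, 262 and 302 with shWDR5; log2 fold change -0.56, SE 0.09, adjusted p = 0.000816), while PLAUR, its receptor, rose (log2 fold change 0.47, adjusted p = 0.0337). IL6, a cytokine, was at 11.4, 7.16 and 11.8 CPM with shCtrl and 4.74, 3.48 and 7.04 with shWDR5 (log2 fold change -1.03, SE 0.24, adjusted p = 0.017), with each shWDR5 library under each shCtrl library. It was 1 of 19 tested cytokine and chemokine genes, of which 15 had a log2 fold change below 0, with a median of -0.248. With the block 6 of them fell, where 8.02% of all tested genes fell. Of 19 tested epithelial genes the tight junction gene CLDN7 (log2 fold change -0.90, adjusted p = 0.00104) and the protease inhibitor gene SPINT1 (log2 fold change -1.10, adjusted p = 0.00733) fell and 0 rose. Of the 19, 12 had a log2 fold change below 0, with a median of -0.078. Of 25 tested mesenchymal genes COL1A2, a collagen chain, fell (log2 fold change -0.93, adjusted p = 0.0248) and 0 rose. However, 18 of the 25 had a log2 fold change above 0, with a median of 0.117. With DESeq2 2 mesenchymal genes rose and 2 fell, and 0 epithelial genes rose and 3 fell. In that fit 3.38% of all tested genes rose and 6.05% fell. MX1 and OAS3, interferon-induced antiviral genes, fell by 0.49 and 0.54 on the log2 scale, and the other 27 of 29 tested interferon-stimulated genes were not called. VCAM1 lost its call without shCtrl library 1 or 3 or shWDR5 library 1, 2 or 3 (largest adjusted p = 0.108), and IL6 lost its call without shCtrl library 3 or shWDR5 library 1 or 2 (largest adjusted p = 0.106). PLAUR lost its call without shCtrl library 1 or 2 or shWDR5 library 1, 2 or 3 (largest adjusted p = 0.111), and SPINT1 lost its call without shWDR5 library 1 or 2 (largest adjusted p = 0.0598). COL1A2 lost its call without shCtrl library 2 or 3 or shWDR5 library 1, 2 or 3 (largest adjusted p = 0.112), and MX1 lost its call without shCtrl library 3 or shWDR5 library 1 or 2 (largest adjusted p = 0.0877). OAS3 lost its call without shCtrl library 2 or shWDR5 library 2 or 3 (largest adjusted p = 0.0861). Of the 46 lists, 19 had 0 calls by edgeR among 493 tested members in all, with 52 at an unadjusted p under 0.05 and 14 called by DESeq2. Among these lists were the proteasome, oxidative phosphorylation, glycolysis, cholesterol synthesis, p53 targets and mTOR pathway, with list medians from -0.113 to 0.218. Over all 12157 tested genes 2448 had an unadjusted p under 0.05, and DESeq2 called 1146.

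Whether a response was particular to LM2 was asked by the difference between its log2 fold change and the mean of those in BrM3 and BoM, which have shCtrl libraries of their own. No gene passed in edgeR (0% of tested genes), with 8 genes at the smallest adjusted p of 0.0524 and 495 at an unadjusted p under 0.05, and DESeq2 called 54 and edgeR with the replicate block 25. The 6 genes with the smallest p were LAMB1, PTGFRN, ARMCX2, AIF1L, KIAA1522 and SYBU, and all 6 passed with the block (adjusted p from 0.0196 to 0.0451) and with DESeq2 (adjusted p of at most 0.000932). ARMCX2, an X-linked armadillo-repeat gene, was at 31.7, 32.1 and 34.7 CPM with shCtrl and 16.2, 15.3 and 13.8 with shWDR5 in LM2 (log2 fold change -1.12, SE 0.08, adjusted p = 8.44e-07), and its log2 fold change was -1.12 in LM2 against -0.33 in BrM3 and -0.70 in BoM (difference -0.60, SE 0.10). LAMB1, a laminin chain, was at 225, 247 and 226 CPM with shCtrl and 251, 250.5 and 233 with shWDR5 in LM2, and its log2 fold change was 0.07 in LM2 against -0.49 in BrM3 and -0.51 in BoM (difference 0.57, SE 0.09). It thus overlapped between the hairpins in LM2. PTGFRN, which encodes a tetraspanin partner, had 0.40 in LM2 against -0.79 in BrM3 and -1.41 in BoM (difference 1.50, SE 0.25), and KIAA1522 had -0.53 in LM2 against -1.19 in BrM3 and -1.42 in BoM (difference 0.77, SE 0.14). Of the 79 RP genes 0 passed this test and 2 were under an unadjusted p of 0.05. All 33 RP genes that fell in LM2 had negative values in both other lines, and these values come from cells of the same origin with the same hairpins.

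**Figure D5:**
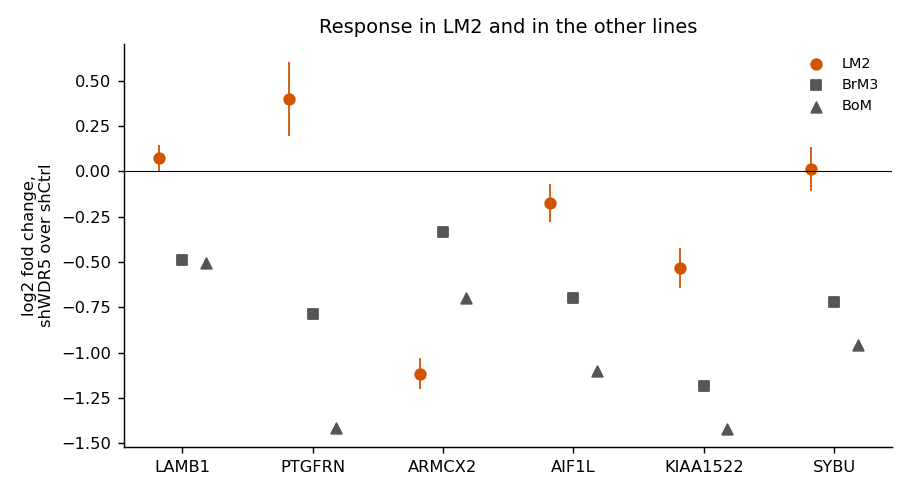
Log2 fold change of shWDR5 over shCtrl (vertical axis) in LM2, BrM3 and BoM for the 6 genes with the smallest p for a difference between LM2 and the other lines; bars are standard errors, drawn for LM2. ARMCX2 is lowest in LM2, and the other 5 genes are highest in LM2, all at an adjusted p of 0.0524 in edgeR without the block.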

How the data were processed

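Raw counts per gene were deposited by the authors, who harvested DOX-treated cells at different passages and, per the submitters' processing notes, used CASAVA 1.8.2, STAR 2.7.0, DESeq2 and build hg38. The strand setting of the counting is not given in the sources used here. Groups were taken from sample titles, because the source names contradict the titles for most libraries. The label BrM2 was read here as BrM3, a line that the study derived from BrM2 cells. A deposited table of the authors' own fold changes and p-values was not used.

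Genes were kept by recomputing the HTSFilter criterion that the study applied, with a highest normalized count over 140 in at least 1 of the 18 libraries, which left 12157 genes. One model over the 18 libraries, with 1 mean per line and hairpin, was fitted with edgeR 4.0.16 in R 4.3.3 (TMM scaling, quasi-likelihood test), and p-values were adjusted by Benjamini-Hochberg over all tested genes at a threshold of 0.05. Each group had 3 libraries, and the depth ran from 18.1M to 119.7M counts. Alternatives were DESeq2 1.42.0, filterByExpr, no filter, the replicate number as a block, the LM2 libraries alone, a correction for GC content, thinning to 17485841 counts and leaving out each library. The fit of the LM2 libraries alone with the block, and the alternatives for the cilium and histone lists, were chosen after seeing the data.

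Named were WDR5, the 12 largest falls and rises with groups not overlapping and at least 50 counts, up to 6 called members of each list by smallest p, any member of the WRAD and KMT2, NSL, MYC and lung metastasis lists and the defining markers, and the 6 smallest p for the difference from the other lines. The members and lists were chosen with earlier results of these data known. Symbols, positions and GC content were matched by Ensembl identifier to GENCODE release 44, and promoter windows to RefSeq on GRCh38.p14. Values of a few genes that the rule names or a list holds are not reported here, and the counts include them.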

Additional observations from a re-analysis of the deposited data

How the results depend on the processing

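WDR5 kept its direction and call in all 15 alternatives, with log2 fold changes from -2.5 to -2.36. The counts depended on the fit. Genes that rose numbered 411 with DESeq2, 468 with the replicate block, 67 with the LM2 libraries alone, 652 with the GC correction, 1385 with both the block and the GC correction and 349 with the LM2 libraries alone and the block, against 181. Genes that fell numbered 975 with the block, 225 with the LM2 libraries alone, 1220 with the GC correction and 1778 with the GC correction and the block, against 584. RP genes that rose numbered 6 with DESeq2, 21 without a filter, 10 with the block, 5 with the LM2 libraries alone, 5 with the GC correction, 19 with the GC correction and the block, 1 after thinning and 25 with the LM2 libraries alone and the block, against 2. Cilium genes that fell numbered 11 with the LM2 libraries alone, 33 with the GC correction and 39 with the GC correction and the block, against 17. Genes that differed between LM2 and the other lines numbered 54 with DESeq2, 30 without a filter, 25 with the block, 52 with the GC correction and 116 with the GC correction and the block, against 0. The cause of these changes was not tested. Leaving out 1 library gave 63 to 205 rises, 314 to 606 falls, 25 to 36 RP genes that fell, 0 to 3 RP genes that rose, 12 to 16 cilium genes that fell, 10 to 11 histone genes that rose and 0 differences between lines. Among 84 called genes picked by the naming rule, 0 reversed direction under any alternative. Genes named outside that set, WDR5 apart, were not followed in this way. With the GC correction 1 of the 12 tested histone genes had a negative log2 fold change, of -0.05, against 0 without it. Of the 765 calls, 99.5% were also called by DESeq2, 99.5% with the block and 99.2% with the GC correction. Each of these fits called more genes in all (1146, 1443 and 1872). The share was lower in other fits, at 36.5% with the LM2 libraries alone, 64.1% without a filter and 66.8% after thinning. Leaving out 1 library gave shares from 49.9% to 79.7%. The replicate numbers paired the libraries only in part. Deviations of same-numbered libraries from their group means correlated at 0.574 for number 1, 0.031 for number 2 and 0.728 for number 3. For numbers 1 and 3 this was the best match of each library, whereas shWDR5 library 2 correlated best with shCtrl library 1, at 0.474. The filter on low counts left out 50 of the 62 histone genes in the table.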

Other observations

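Calls in the lists of this paragraph were counted against the 4.8% of all tested genes that fell and the 1.49% that rose. Of 34 tested lysosomal genes 2 rose (5.88%) and 1 fell (2.94%). LIPA, the acid lipase that splits cholesterol esters, was at 52.95, 45.9 and 51.8 CPM with shCtrl and 32.6, 33.8 and 41.4 with shWDR5 (log2 fold change -0.49, SE 0.10, adjusted p = 0.00638), and each shWDR5 library was under each shCtrl library. NPC1, which carries cholesterol out of the lysosome, was at 157, 158 and 158 CPM with shCtrl and 206, 193 and 194 with shWDR5 (log2 fold change 0.33, SE 0.09, adjusted p = 0.0433), and CTSB, the protease cathepsin B, was at 419.8, 426 and 422 CPM with shCtrl and 534, 477 and 539.8 with shWDR5 (log2 fold change 0.29, SE 0.08, adjusted p = 0.0355). CTSB lost its call without shCtrl library 1, 2 or 3 or shWDR5 library 1 or 3 (largest adjusted p = 0.144), and NPC1 lost its call without shCtrl library 1, 2 or 3 or shWDR5 library 1, 2 or 3 (largest adjusted p = 0.167). Of 15 tested genes of MAPK feedback ETV5, an ETS factor, rose (118, 114 and 103 CPM with shCtrl and 147, 144 and 139 with shWDR5, log2 fold change 0.36, adjusted p = 0.0178), and of 34 splicing factors HNRNPAB rose (286, 274 and 303 CPM with shCtrl and 372, 354 and 361 with shWDR5, log2 fold change 0.34, adjusted p = 0.0349). ETV5 lost its call without shCtrl library 2 or 3 or shWDR5 library 1 or 2 (largest adjusted p = 0.104), and HNRNPAB lost its call without shCtrl library 1, 2 or 3 or shWDR5 library 1, 2 or 3 (largest adjusted p = 0.145).

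Of the 6 tested ARMCX genes, which all lie on chromosome X, ARMCX2 fell by 1.12 on the log2 scale (16.7%, against 4.8% of all tested genes). The other 5 were not called by edgeR, with log2 fold changes from -0.41 to 0.05. With DESeq2 and with the replicate block 3 of the 6 fell, with the GC correction 2, and with the correction and the block 4. Of all tested genes 6.05%, 8.02%, 10% and 14.6% fell in these fits. Host genes of small nucleolar RNAs that fell beside SNHG15 were SNHG17, at 30.0, 33.0 and 31.0 CPM with shCtrl and 21.9, 21.0 and 18.6 with shWDR5 (log2 fold change -0.61, adjusted p = 0.00941), and SNHG11, at 3.29, 3.75 and 3.92 CPM with shCtrl and 2.53, 2.12 and 1.91 with shWDR5 (log2 fold change -0.73, adjusted p = 0.0408). SNHG11 lost its call without shCtrl library 2 or 3 or shWDR5 library 1, 2 or 3 (largest adjusted p = 0.152).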
